A study of Mus musculus with 4 samples.

Results

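Rab genes encode small GTPases that sit on the membranes of cells. They were taken here as every gene in the deposited feature list whose symbol is Rab, a number and at most 1 letter, which gave 59 of 19465 listed genes. They were measured in 4 mouse brain sections, 2 labelled rNLS8 and 2 labelled control. In rNLS8 mice, removal of doxycycline turns on human TDP-43 that has lost its nuclear import signal, in neurons, so that the protein collects outside the nucleus. All sections were 5 µm slices of fixed, paraffin-embedded brain from mice of 11 weeks, and the design text places them 3 weeks after doxycycline was withdrawn. The labels give the same withdrawal to the control mice, and list each genotype's replicate 1 as female and its replicate 2 as male. They do not name the controls' alleles or the promoter of the transgene, and do not state that each section came from a separate mouse, so the p-values measure the spread between these sections only.

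A Rab protein carries GTP when active and GDP when idle. Exchange factors (GEFs) load GTP, and activating proteins (GAPs, most with a TBC domain) speed its hydrolysis. The active form recruits effectors, such as motor adaptors, tethers and synaptic scaffold proteins, and so marks each compartment of the cell. In neurons, Rab3 and Rab27 proteins act on synaptic vesicles and secretory granules, Rab5 and Rab11 on endocytosis and the return of receptors to the surface, Rab7 on the late endosomes and autophagosomes that travel along axons, and Rab1, Rab2 and Rab6 on traffic through the Golgi.

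Spots kept for the analysis numbered 3031 and 2655 in the rNLS8 sections and 3810 and 3306 in the control sections, with section totals of 17627577 to 28056089 unique molecular identifiers (UMI, a tag for each captured molecule). A spot covers a small area with several cells. Tardbp, the gene of the transgene's protein, had 197 and 138 UMI in rNLS8 sections and 0 and 0 in control sections. The counts of 0 cannot be read as a lack of the mouse gene's RNA, because the sources used here do not give the probes. The summed level of 4 Y-linked genes was 131.7 and 132.2 CPM in rNLS8 replicates 1 and 2, and 0 and 108.3 CPM in control replicates 1 and 2, which goes against the female label of rNLS8 replicate 1. Only control replicate 1 lacked a Y-linked signal, so by these genes sex was not balanced between the genotypes. Its part in the values, those of X-linked Rab genes included, was not tested. Values without rNLS8 replicate 1 are given below for Rab3b in the striatum and for Rab24, Rab33b, Rab9b and Rab40b in the cortex. Leaving that section out does not balance sex. Levels are CPM, a gene's UMI as a share of all UMI of the section or region after trimmed-mean scaling, with n = 2 sections a genotype throughout, and fold changes are log2 of rNLS8 over control from edgeR's quasi-likelihood test, with a standard error (SE) derived from that test. Called means an adjusted p (Benjamini-Hochberg, over all genes tested) under 0.05. UMI were summed over the whole section and over regions found by clustering spots without the Rab genes. In such sums, fewer cells of a type and less RNA per cell cannot be told apart.

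Of the 59 Rab genes, 51 passed the filter on low counts in whole sections and 47 did so in the cortex. The 8 left out of the whole-section test were Rab5a, Rab7b, Rab17, Rab19, Rab25, Rab38, Rab39 and Rab44. Rab5a, a core regulator of early endosomes, had 5 UMI in rNLS8 replicate 1 and 0 in each of the other sections, although over all sections its paralog Rab5b had 5122 UMI and its paralog Rab5c 15213. Rab6a, a Golgi Rab, had 19 and 4 UMI in rNLS8 sections and 4 and 14 in control sections. Both are widely expressed genes, and their low counts here cannot be read as low expression, because the sources used here do not give the probes. Rab17 and Rab25, which are known from epithelia, had at most 2 UMI in any section.

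No Rab gene was called in any comparison by edgeR. In whole sections 0 of 51 members were called, against 0.0% of all 13444 genes tested. There, 10 members had an unadjusted p under 0.05 (19.6%), against 15.6% of all genes, and 32 had sections that did not overlap between the genotypes (62.7%), against 52.1%. In the cortex 0 of 47 were called, against 1.34% of 12237 genes, while 10 had an unadjusted p under 0.05 (21.3%, against 20.8%) and 27 did not overlap (57.4%, against 55.3%). These shares lie near those of all genes. DESeq2 called Rab40b in whole sections (3.86% of all genes called) and Rab40b and Rab24 in the cortex (5.51% of all genes called). The median log2 fold change of the tested members was -0.03 in whole sections and 0.03 in the cortex, against 0.02 for all genes in both.

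The control sections differed from each other more than the rNLS8 sections did, and this bears on every comparison here. A chi-square statistic between the sections of a genotype, divided by its degrees of freedom over Rab genes reaching 20 counts, was 11.5 in rNLS8 and 58.5 in control, and over all genes it was 18.5 in rNLS8 and 46.2 in control. With 1 control section left out, the rNLS8 pair alone supplies the spread within a genotype, and the lone control section is assumed to vary as they do. Without control replicate 2, edgeR called 10 of 53 Rab genes in whole sections (18.9%), against 13.5% of all genes in the same fit, and 21 of 48 in the cortex (43.8%), against 30.6%. Without control replicate 1 it called 0 in whole sections, against 0.0144% of all genes, and 3 of 49 in the cortex (6.12%; Rab11b, Rab24 and Rab40b), against 8.63%. Leaving out either rNLS8 section, so that the control pair supplies the spread, gave 0 in both, against 0.24% to 1.52% of all genes.

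In whole sections the members with the smallest p after Rab40b included 3 that were lower in rNLS8 beside Rab24. Rab42 had 3.40 and 3.45 CPM in rNLS8 and 8.44 and 5.67 CPM in control (-1.04, SE 0.308), Rab26 had 26.3 and 33.2 CPM in rNLS8 and 40.2 and 45.5 CPM in control (-0.53, SE 0.177), and Rab3c had 30.9 and 32.2 CPM in rNLS8 and 60.0 and 39.6 CPM in control (-0.65, SE 0.222). Members with higher values were Rab11b, with 322.7 and 284.2 CPM in rNLS8 and 231.1 and 218.2 CPM in control (0.43), Rab3b, with 331.6 and 260.3 CPM in rNLS8 and 164.6 and 229.7 CPM in control (0.59), Rab9b, with 18.4 and 14.7 CPM in rNLS8 and 8.27 and 12.2 CPM in control (0.69), and Rab33b, with 43.6 and 39.8 CPM in rNLS8 and 23.8 and 34.0 CPM in control (0.53). All 7 kept the genotypes apart, and their adjusted p by edgeR ran from 0.236 to 0.305.

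**Figure D1:**
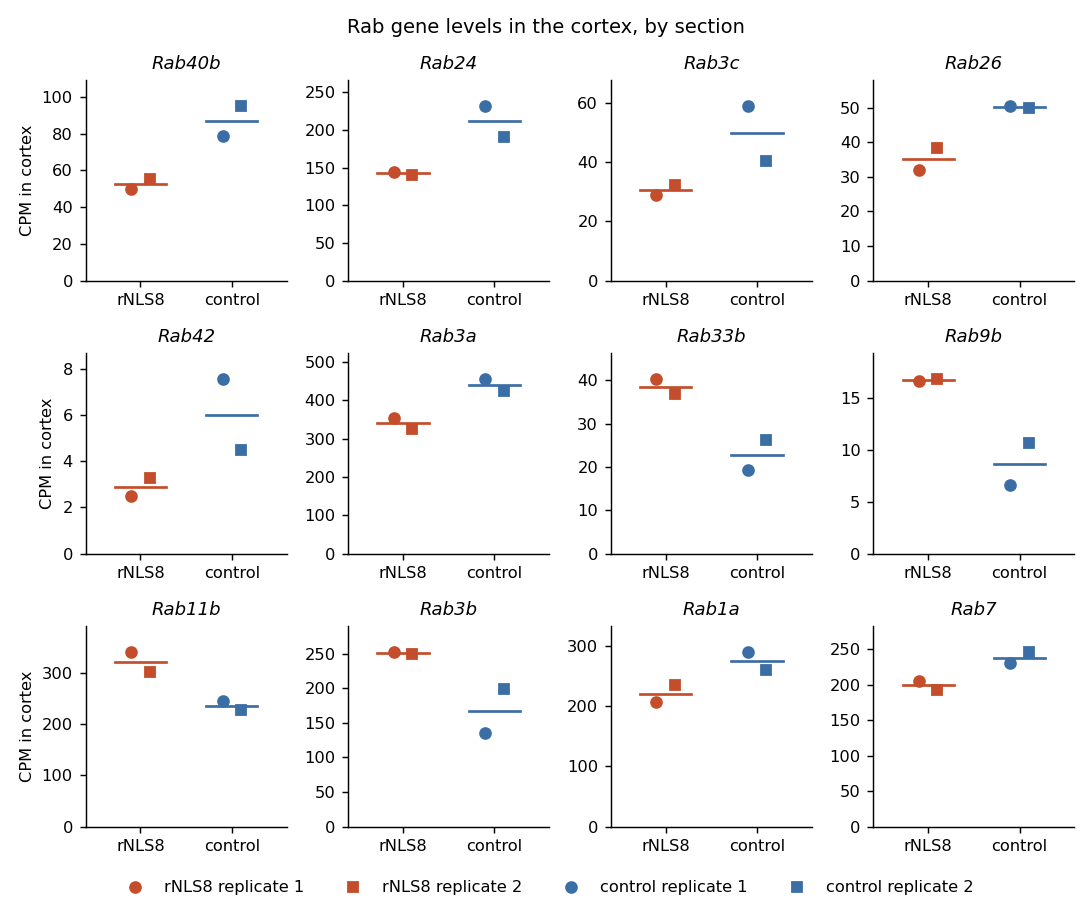
Level in the cortex (CPM, linear axis from 0) of 12 Rab genes in each section, with rNLS8 sections left of control sections and a line at each genotype's mean. Rab40b, Rab24, Rab3c, Rab26, Rab42, Rab3a, Rab1a and Rab7 were lower in both rNLS8 sections than in both control sections, and Rab33b, Rab9b, Rab11b and Rab3b were higher. None of the 12 passed the adjusted threshold.

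Among the 8 Rab genes of regulated secretion, 7 were tested in the cortex, with a median log2 fold change of -0.25. Of the 7, 3 were above 0 and 4 below. The middle value was that of Rab27b (-0.25, SE 0.659), whose control sections enclosed its rNLS8 sections in the cortex. Rab3a, the main Rab of synaptic vesicles, had 355.3 and 326.1 CPM in rNLS8 cortex and 456.2 and 424.8 CPM in control cortex (log2 fold change -0.37, SE 0.140, adjusted p = 0.201 by edgeR). Rab3c, also found on synaptic vesicles, had 29.0 and 32.4 CPM in rNLS8 cortex and 59.0 and 40.4 CPM in control cortex (-0.69, SE 0.215, adjusted p = 0.14 by edgeR). Both rNLS8 sections lay below both control sections for each gene. Rab26, which links synaptic vesicles to autophagy, had 32.0 and 38.4 CPM in rNLS8 cortex and 50.6 and 49.98 CPM in control cortex (-0.51, SE 0.165, adjusted p = 0.148 by edgeR). Rab26 values did not overlap either, but with finer clustering (Leiden resolution 1.5), where the cortex kept fewer rNLS8 spots, its log2 fold change was 0.09.

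Rab3b went the other way from Rab3a. Rab3b is a close relative of Rab3a on secretory vesicles. It had 252.8 and 250.5 CPM in rNLS8 cortex and 135.5 and 199.1 CPM in control cortex (log2 fold change 0.59, SE 0.199, adjusted p = 0.163 by edgeR). In the striatum it had 348.3 and 348.9 CPM in rNLS8 sections and 170.9 and 209.4 CPM in control sections (0.87, SE 0.161, adjusted p = 0.076 by edgeR), the smallest p of any member there. Both rNLS8 sections lay above both control sections in each of these regions. Without rNLS8 replicate 1 the striatal value was 0.88 (adjusted p = 0.15 by edgeR), and over the alternatives its adjusted p ran from 0.000886 to 0.252.

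Rab27a and Rab27b help lysosome-related organelles and granules dock at the cell surface. Rab27a had 18.8 and 17.9 CPM in whole rNLS8 sections and 18.0 and 18.8 CPM in whole control sections, a log2 fold change of -0.0016 (SE 0.172). Rab27b had 4.57 and 5.23 CPM in whole rNLS8 sections and 2.28 and 8.04 CPM in whole control sections. The control sections enclosed the rNLS8 sections for Rab27b, whose log2 fold change was -0.09 (SE 0.561), and 1.08 without control replicate 2. Rab37, a granule Rab, had 4.26 and 4.31 CPM in rNLS8 sections and 4.79 and 5.25 CPM in control sections. Rab3d was near 1 CPM in each whole section, at 1.06 and 1.19 in rNLS8 and 1.31 and 1.35 in control.

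Sums of neuronal markers were lower beside these genes. The summed level of 8 pan-neuronal markers in the cortex was 8707 and 8300 CPM in rNLS8 and 13110 and 12280 CPM in control. Of the 8, 4 were lower and 0 higher without overlap. Over all 12237 genes tested in the cortex, 3250 were lower and 3514 higher without overlap. The 6 markers of excitatory neurons summed to 5534 and 5769 CPM in rNLS8 cortex and 8637 and 7021 CPM in control cortex. Of these 6, 3 were lower and 1 higher without overlap. All 9 measured markers of activated microglia were higher without overlap, with sums of 496.7 and 692.3 CPM in rNLS8 cortex and 179.7 and 199.7 CPM in control cortex. The part of these shifts in the values of the Rab genes was not tested.

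Of the 16 Rab genes of the ER and Golgi, 13 were tested in the cortex, with a median log2 fold change of 0.03. Rab1a, which carries vesicles from the ER to the Golgi, had 207.2 and 234.4 CPM in rNLS8 cortex and 290.2 and 259.6 CPM in control cortex (-0.32, SE 0.148, adjusted p = 0.279 by edgeR). Rab2a, which acts on the same route and in autophagy, had 81.9 and 77.6 CPM in rNLS8 cortex and 92.3 and 97.2 CPM in control cortex. Both genes were below control in both rNLS8 sections. Rab33b, a Golgi Rab that binds the autophagy protein Atg16l1, had 40.3 and 36.7 CPM in rNLS8 cortex and 19.3 and 26.2 CPM in control cortex (0.76, SE 0.20, adjusted p = 0.105 by edgeR). Its X-linked relative Rab33a had 73.5 and 75.1 CPM in rNLS8 cortex and 111.4 and 82.6 CPM in control cortex (-0.38). Rab33b was above and Rab33a below control in both rNLS8 sections. Without rNLS8 replicate 1 the cortical value of Rab33b was 0.69 (adjusted p = 0.539 by edgeR).

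Rab6b, the Golgi Rab enriched in neurons, had 752.0 and 682.2 CPM in rNLS8 cortex and 480.7 and 717.0 CPM in control cortex, so that the genotypes overlapped. Rab18, a Rab of lipid droplets and the ER, had 260.2 and 276.1 CPM in rNLS8 cortex and 339.4 and 294.8 CPM in control cortex. Rab39b, an X-linked gene whose loss causes intellectual disability with early parkinsonism in humans, had 83.6 and 81.4 CPM in rNLS8 cortex and 105.0 and 90.5 CPM in control cortex. Rab18 and Rab39b were lower in both rNLS8 sections than in both control sections. Rab1b had 105.9 and 103.7 CPM in rNLS8 cortex and 84.5 and 111.9 CPM in control cortex, with overlap.

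Of the 15 Rab genes of early and recycling endosomes, 12 were tested in the cortex, with a median log2 fold change of 0.04 and a range of -0.28 to 0.44. Rab11b, a recycling Rab that is abundant in brain, had 340.5 and 300.7 CPM in rNLS8 cortex and 244.3 and 227.7 CPM in control cortex (0.44, SE 0.144, adjusted p = 0.153 by edgeR). It was above both controls in both rNLS8 sections, as it also was in the striatum, with 331.7 and 296.9 CPM in rNLS8 and 221.1 and 225.5 CPM in control. Rab11a, the ubiquitous member of the pair, had 255.4 and 261.6 CPM in rNLS8 cortex and 367.5 and 260.3 CPM in control cortex. Rab11a thus overlapped, since control replicate 2 lay between the rNLS8 sections. In whole sections the log2 fold change of Rab11a was -0.23 (SE 0.208, adjusted p = 0.604 by edgeR), and 0.08 without control replicate 1.

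Rab14, which moves cargo between the trans-Golgi and endosomes, had 278.5 and 274.5 CPM in rNLS8 cortex and 168.8 and 248.3 CPM in control cortex (0.41, SE 0.199, adjusted p = 0.301 by edgeR). Rab15, a Rab of recycling endosomes found mainly in neural tissue, had 476.9 and 469.0 CPM in rNLS8 cortex and 585.7 and 560.5 CPM in control cortex (-0.28, SE 0.135, adjusted p = 0.299 by edgeR). Neither gene overlapped between genotypes. Rab5c had 178.6 and 183.2 CPM in rNLS8 cortex and 168.2 and 161.0 CPM in control cortex, and Rab5b had 63.2 and 62.2 CPM in rNLS8 cortex and 51.0 and 55.9 CPM in control cortex. Rab4a, Rab21, Rab22a and Rab35 overlapped in the cortex, with log2 fold changes between -0.01 and 0.06.

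Of the 9 Rab genes of late endosomes, lysosomes and related organelles, 6 were tested in the cortex, with a median log2 fold change of 0.45 and a range of -0.57 to 0.95. Of the 6, 4 were above 0 and 2, Rab24 and Rab7, below. Those above include 2 with few cortical counts. Rab29 (0.60, SE 0.625) had 20 and 28 UMI in rNLS8 cortex and 19 and 6 in control cortex. Rab32 (0.50, SE 0.499) had 14 and 19 UMI in rNLS8 cortex and 7 and 12 in control cortex. Rab24, a Rab that takes part in the clearance of autophagosomes, had 144.7 and 140.4 CPM in rNLS8 cortex and 232.0 and 191.3 CPM in control cortex (-0.57, SE 0.154, adjusted p = 0.11 by edgeR). In whole sections it had 148.1 and 140.3 CPM in rNLS8 and 223.9 and 184.4 CPM in control (-0.50, SE 0.152, adjusted p = 0.239 by edgeR). Rab24 was below both controls in both rNLS8 sections in the cortex, the striatum, the fibre tracts and the meninges. Without rNLS8 replicate 1 its cortical value was -0.59 (adjusted p = 0.627 by edgeR). Rab7, the central Rab of late endosomes, had 205.9 and 193.3 CPM in rNLS8 cortex and 230.4 and 246.5 CPM in control cortex (-0.26, SE 0.138, adjusted p = 0.341 by edgeR), again without overlap.

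Rab9b and Rab9, both X-linked, belong to a pair that returns receptors from late endosomes to the Golgi, a role known from Rab9. Rab9b had 16.6 and 16.9 CPM in rNLS8 cortex and 6.63 and 10.6 CPM in control cortex (0.95, SE 0.279, adjusted p = 0.129 by edgeR). Rab9 had 10.6 and 10.7 CPM in rNLS8 cortex and 6.01 and 9.97 CPM in control cortex. Both were higher in each rNLS8 section than in each control section. Without rNLS8 replicate 1 the cortical value of Rab9b was 0.96 (adjusted p = 0.494 by edgeR).

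Rab20 and Rab32 had few counts. Rab20, which is induced in macrophages and acts on phagosomes, had 22 and 14 UMI in rNLS8 sections and 3 and 6 UMI in control sections (1.78, SE 0.576, adjusted p = 0.258 by edgeR). Rab32, a Rab of mitochondria and lysosome-related organelles, had 51 and 47 UMI in rNLS8 sections and 23 and 35 UMI in control sections, which was 1.75 and 2.53 CPM in rNLS8 and 1.31 and 1.48 CPM in control. Rab29, an activator of the kinase LRRK2, had 2.09 and 4.10 CPM in rNLS8 sections and 2.17 and 1.95 CPM in control sections. Rab20 and Rab32 did not overlap between genotypes, and Rab29 did.

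The promoter windows of Rab24 and of the endosomal Rab21 are shown because both hold the palindrome made of CACGTG with GT before it and AC after it, known as the motif bound by TFEB and its relatives at genes of lysosomes and autophagy. The motif is in capitals. The window of Rab24 lies at chr13:55321931-55322230 and that of Rab21 at chr10:115315542-115315841, both on the minus strand of GRCm38.p6. The sequences are from RefSeq and run 5′ to 3′ along the gene. The Rab21 window lies within the listed span of the gene (115289862 to 115317419) and not at its end.
Rab24: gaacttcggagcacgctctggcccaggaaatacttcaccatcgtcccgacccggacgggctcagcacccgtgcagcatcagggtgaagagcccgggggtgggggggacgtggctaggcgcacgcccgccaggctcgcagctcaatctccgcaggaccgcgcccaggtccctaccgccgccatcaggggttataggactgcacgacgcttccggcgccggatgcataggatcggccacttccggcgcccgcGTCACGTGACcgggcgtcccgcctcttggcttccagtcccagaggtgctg
Rab21: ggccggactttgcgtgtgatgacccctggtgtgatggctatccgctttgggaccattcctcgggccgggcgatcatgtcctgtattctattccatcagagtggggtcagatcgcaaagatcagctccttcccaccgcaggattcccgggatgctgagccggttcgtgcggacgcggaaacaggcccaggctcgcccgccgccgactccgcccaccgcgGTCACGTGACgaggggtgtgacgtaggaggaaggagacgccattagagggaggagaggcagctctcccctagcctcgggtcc

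Windows of 300 bases were at hand for 48 of the 59 Rab genes, 60 windows in all. The palindrome, which reads the same on both strands, was in 3 of the 60 (5.0%; Rab21, Rab24 and Rab5a), against 0.326% of 32851 windows of mouse genes. Its core CACGTG, which lies within the palindrome, was in 6 of the 60 (10.0%), against 7.15% of all windows. The palindrome TGACGTCA, the cyclic AMP response element, was in 2 of the 60 (3.33%), against 1.79%. A match describes the letters and not the use of a site. The 2 genes printed did not have like values, since Rab24 was lower in rNLS8 cortex as given above, while Rab21 had 117.9 and 112.5 CPM in rNLS8 cortex and 113.8 and 114.9 CPM in control cortex.

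All 5 Rab genes of constitutive exocytosis, most of them substrates of LRRK2, were tested in the cortex, with a median log2 fold change of 0.15. Rab10, which drives insertion of transporters and receptors at the surface, had 187.8 and 174.1 CPM in rNLS8 cortex and 122.5 and 165.6 CPM in control cortex (0.33, SE 0.179, adjusted p = 0.347 by edgeR). Rab8b had 13.3 and 16.2 CPM in rNLS8 cortex and 5.70 and 13.4 CPM in control cortex, and Rab8a had 74.7 and 79.5 CPM in rNLS8 cortex and 64.0 and 74.8 CPM in control cortex. Of the 3, only Rab10 did not overlap. Rab12, which activates LRRK2 on damaged lysosomes, had 102.0 and 98.5 CPM in rNLS8 striatum and 121.8 and 129.7 CPM in control striatum (-0.33, SE 0.149, adjusted p = 0.359 by edgeR), without overlap, while its cortical sections overlapped.

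Rab40b had the smallest p of all members in whole sections and in the cortex. It belongs to a family of Rab proteins with a SOCS box, which recruits a ubiquitin ligase. Rab40b had 70.4 and 67.2 CPM in whole rNLS8 sections and 97.0 and 132.4 CPM in whole control sections (-0.74, SE 0.183, adjusted p = 0.196 by edgeR). In the cortex it had 49.9 and 55.5 CPM in rNLS8 and 78.5 and 95.1 CPM in control (-0.72, SE 0.164, adjusted p = 0.0801 by edgeR). Both rNLS8 sections were below both control sections in each of these and in the striatum, the fibre tracts and the meninges. Over the 12 alternatives its cortical log2 fold change ran from -0.86 to -0.55 and its adjusted p from 0.0101 to 0.589, under 0.05 in 5. Without rNLS8 replicate 1 it was -0.64 (adjusted p = 0.546 by edgeR). Its relative Rab40c had 67.9 and 76.6 CPM in rNLS8 cortex and 60.6 and 62.3 CPM in control cortex (0.23).

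Rab42, a little studied member, had 2.49 and 3.27 CPM in rNLS8 cortex and 7.55 and 4.46 CPM in control cortex (-1.05, SE 0.395, adjusted p = 0.199 by edgeR), from 99 and 64 UMI in whole rNLS8 sections and 148 and 134 UMI in whole control sections. Rab28, a ciliary Rab, had 67.9 and 74.3 CPM in rNLS8 cortex and 89.9 and 72.3 CPM in control cortex. Rab42 did not overlap between genotypes and Rab28 did. Rab23, which limits Hedgehog signalling at the cilium, had 25 and 23 UMI in rNLS8 sections and 1 and 22 UMI in control sections, so that control replicate 1 stood apart.

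**Figure D2:**
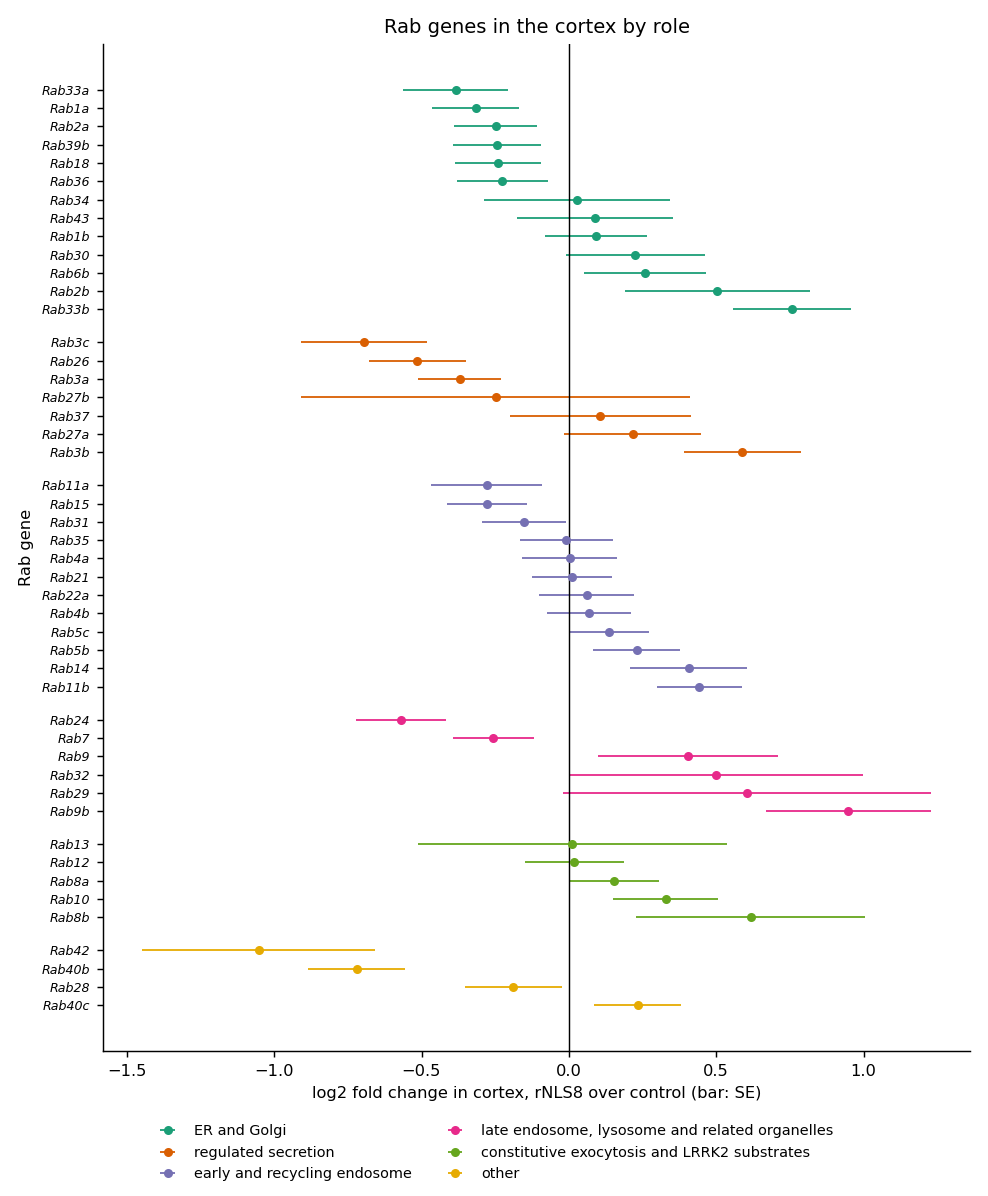
Log2 fold change in the cortex, rNLS8 over control, of the 47 Rab genes tested, with bars of 1 SE, grouped and coloured by role. Members of each role with several genes lie on both sides of 0, except the 5 genes of constitutive exocytosis, whose median is 0.15 and whose values run from 0.01 to 0.62.

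Some ratios of paralogs within a section differed between the genotypes, a measure that does not depend on the scaling between sections. The ratio of Rab3b to Rab3a UMI in whole sections was 1.05 and 0.946 in rNLS8 and 0.440 and 0.679 in control. The ratio of Rab11b to Rab11a was 1.32 and 1.17 in rNLS8 and 0.676 and 0.946 in control. Both ratios were higher in each rNLS8 section than in each control section. The ratio of Rab33b to Rab33a was 0.728 and 0.635 in rNLS8 and 0.281 and 0.571 in control. The ratio of Rab40b to Rab40c was 0.997 and 0.933 in rNLS8 and 1.47 and 1.89 in control. These 4 ratios kept their directions without overlap in the cortex and in the striatum, which are parts of the same sections and add no replication. A share over other gene pairs was not computed, while 52.1% of all single genes tested did not overlap in whole sections. The ratios are given as values, with no test.

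In the cortex the ratio of Rab3b to Rab3a was 0.712 and 0.768 in rNLS8 and 0.297 and 0.469 in control, and that of Rab40b to Rab40c was 0.736 and 0.725 in rNLS8 and 1.30 and 1.53 in control. Of the 11 pairs computed, those of Rab3c to Rab3a, Rab5c to Rab5b, Rab4b to Rab4a and Rab8b to Rab8a overlapped in whole sections, cortex and striatum. A pair of paralogs may share sequence, and the sources used here do not say whether the probes tell such genes apart.

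**Figure D3:**
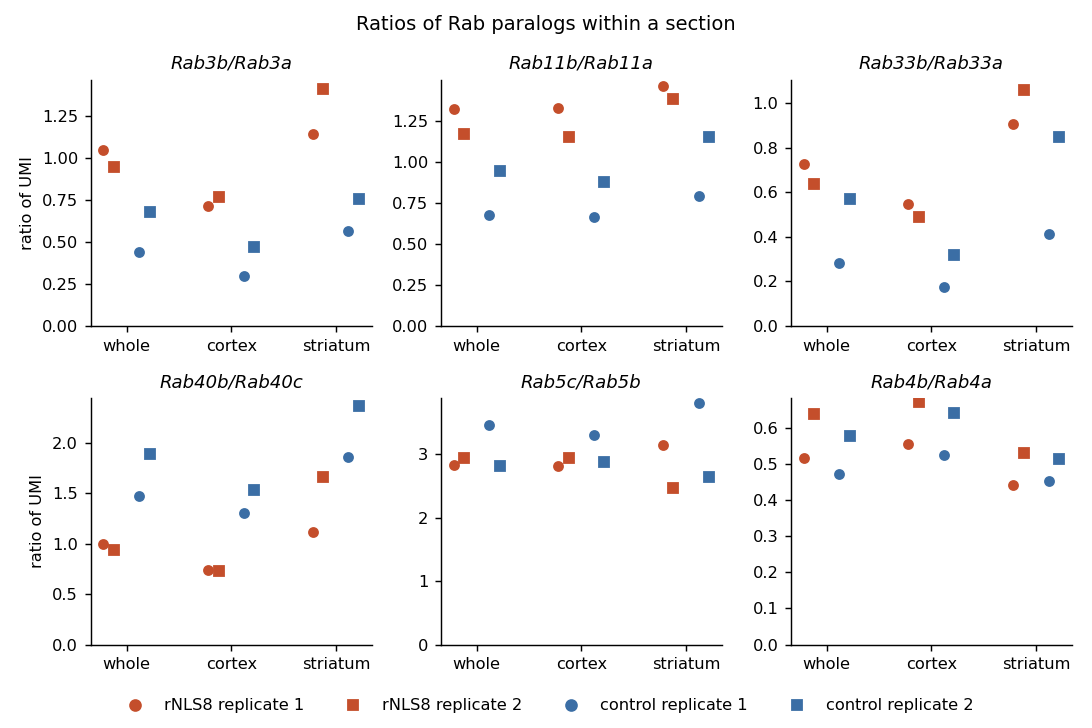
Ratio of UMI of 6 pairs of Rab paralogs (axis from 0) in whole sections, cortex and striatum, 1 point a section, with rNLS8 left of control. Rab3b/Rab3a, Rab11b/Rab11a and Rab33b/Rab33a lie higher and Rab40b/Rab40c lower in rNLS8 sections, while Rab5c/Rab5b and Rab4b/Rab4a overlap.

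The cortex held 790 and 888 spots in rNLS8 and 943 and 735 in control, and the clusters that formed it were not shared evenly. Cluster 3 supplied 493 and 530 of the rNLS8 spots, against 52 and 80 of the control spots. None of its 10 leading genes is on the cortical marker lists used here. Its best list was still that of all cortical layers, with a mean log2 lead of 0.922. Clusters 7 and 10 supplied 60 and 39, and 21 and 21, of the rNLS8 spots, against 384 and 271, and 220 and 197, of the control spots. Cluster 5 held 216 and 298 rNLS8 spots and 287 and 187 control spots. Naming the cortex by marker scores instead of clusters also gave 0 Rab calls. Clusters left without a name held 933 and 915 spots in rNLS8 and 1467 and 1440 in control.

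In the striatum edgeR called 0 of 47 members, against 0.459% of 11970 genes, while 6 members had an unadjusted p under 0.05 (12.8%, against 14.8%) and 27 did not overlap (57.4%, against 48.2%). DESeq2 called Rab3b there (2.38% of all genes called). The striatum held 585 and 265 spots in rNLS8 and 650 and 542 in control. Thus rNLS8 replicate 2 held the fewest striatal spots, which also enter the whole-section sums. The striatal values of Rab26 were 22.4 and 26.7 CPM in rNLS8 and 33.5 and 44.4 CPM in control, and those of Rab42 were 3.00 and 2.76 CPM in rNLS8 and 8.79 and 5.80 CPM in control. Both were without overlap, as in the cortex. Rab40b had 86.2 and 120.6 CPM in rNLS8 striatum and 136.3 and 190.1 CPM in control striatum (-0.68), and Rab24 had 153.9 and 151.0 CPM in rNLS8 and 222.4 and 184.4 CPM in control (-0.41). Rab39b had 83.3 and 79.6 CPM in rNLS8 striatum and 101.0 and 99.1 CPM in control striatum, Rab33b had 45.3 and 41.9 CPM in rNLS8 and 25.8 and 37.1 CPM in control, and Rab32 had 2.32 and 2.76 CPM in rNLS8 and 1.43 and 0.828 CPM in control. The summed pan-neuronal markers were 7191 and 6841 CPM in rNLS8 striatum and 9293 and 8197 CPM in control striatum, and their part was not tested.

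In the fibre tracts 0 of 38 members were called (0.463% of 9062 genes), by DESeq2 also 0 (0.375%), and 5 had an unadjusted p under 0.05 (13.2%, against 12.4%), while 14 did not overlap (36.8%, against 44.6%). Rab3b had the smallest p, with 281.4 and 263.1 CPM in rNLS8 and 144.1 and 166.9 CPM in control (0.80, SE 0.182, adjusted p = 0.0922 by edgeR). Rab31, an endosomal Rab of glial cells, had 213.6 and 206.0 CPM in rNLS8 and 263.2 and 273.9 CPM in control (-0.36, SE 0.171, adjusted p = 0.415 by edgeR). Neither gene overlapped between genotypes. In the same tracts the 8 oligodendrocyte markers summed to 56960 and 53150 CPM in rNLS8 and 68840 and 61970 CPM in control, with 3 lower and 0 higher without overlap. The 9 measured markers of activated microglia summed to 614.4 and 757.8 CPM in rNLS8 tracts and 270.9 and 316.4 CPM in control tracts, with 8 higher without overlap. The part of both in the values of Rab genes was not tested. Rab9 had 15.4 and 14.9 CPM in rNLS8 and 3.84 and 6.30 CPM in control, Rab10 had 257.6 and 217.6 CPM in rNLS8 and 161.4 and 190.5 CPM in control, and Rab4b had 83.1 and 82.7 CPM in rNLS8 and 61.5 and 58.2 CPM in control. Rab40b stood at 48.2 and 36.4 CPM in rNLS8 tracts and 80.7 and 72.4 CPM in control tracts, Rab11b at 301.6 and 274.6 CPM in rNLS8 and 211.3 and 196.8 CPM in control, and Rab6b at 564.8 and 556.7 CPM in rNLS8 and 451.5 and 458.1 CPM in control. All 6 of these genes kept the genotypes apart. Rab9 did so on few UMI, since the control tracts held 549780 and 645895 UMI in all, on 114 and 88 spots. The rNLS8 tracts held 135 and 152 spots. Rab24 had 118.0 and 137.3 CPM in rNLS8 tracts and 190.2 and 138.5 CPM in control tracts, so that rNLS8 replicate 2 and control replicate 2 were nearly equal, and Rab36 had 48.9 and 38.0 CPM in rNLS8 and 71.1 and 50.4 CPM in control.

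In the meninges and vessels 0 of 40 members were called (0.499% of 10214 genes), by DESeq2 also 0 (0.832%), and 3 had an unadjusted p under 0.05 (7.5%, against 11.5%), while 20 of the 40 did not overlap, against 44.2% of all genes. The 3 were Rab40b, with 60.5 and 61.8 CPM in rNLS8 and 78.3 and 118.5 CPM in control, Rab24, with 144.5 and 121.7 CPM in rNLS8 and 184.7 and 190.3 CPM in control, and Rab15, with 371.6 and 380.7 CPM in rNLS8 and 506.7 and 477.5 CPM in control. All 3 were lower in both rNLS8 sections than in both control sections. Of the members next by p, Rab33b had 46.4 and 35.1 CPM in rNLS8 meninges and 16.2 and 30.9 CPM in control meninges, Rab14 had 262.7 and 255.7 CPM in rNLS8 and 127.1 and 235.4 CPM in control, and Rab11b had 286.2 and 263.6 CPM in rNLS8 and 226.0 and 214.6 CPM in control. Rab3c had 34.3 and 29.97 CPM in rNLS8 meninges and 53.2 and 40.9 CPM in control meninges, Rab2a had 80.0 and 68.8 CPM in rNLS8 and 88.6 and 100.2 CPM in control, and Rab7 had 194.2 and 191.0 CPM in rNLS8 and 231.9 and 222.1 CPM in control. The first 3 of these were higher and the other 3 lower without overlap. Rab9 had 12.1 and 7.96 CPM in rNLS8 meninges and 0 and 7.51 CPM in control meninges. This region held 226 and 353 spots in rNLS8 and 235 and 231 in control.

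**Figure D4:**
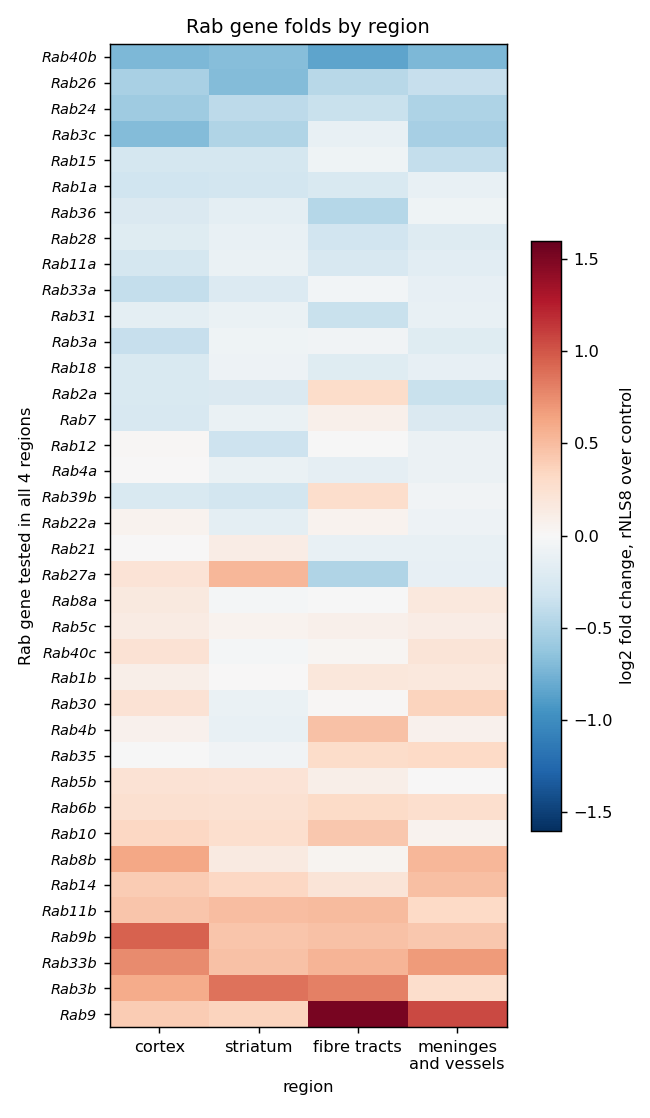
Log2 fold change, rNLS8 over control, of the 38 Rab genes tested in all 4 regions, ordered by their mean over regions. Rab40b (-0.72 in the cortex, -0.68 in the striatum, -0.84 in fibre tracts, -0.71 in meninges) is at the top and Rab9, Rab3b and Rab33b at the bottom. Rab9 rests on few UMI in fibre tracts and meninges, and the same 4 sections underlie every column.

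A test of the difference between the effect in the cortex and in all other spots called 0 of 49 members by edgeR, against 0.193% of 12943 genes, and 3 had an unadjusted p under 0.05 (6.12%, against 9.87%). Rab33a had the smallest p, with a difference of -0.28 (SE 0.105, adjusted p = 0.396 by edgeR). Outside the cortex Rab33a had 53.6 and 52.8 CPM in rNLS8 and 68.4 and 48.8 CPM in control, with overlap, unlike in the cortex. Rab2b had a difference of 0.84 (SE 0.340) and Rab33b one of 0.30 (SE 0.136). Rab33b had 45.2 and 42.2 CPM outside the cortex in rNLS8 and 26.3 and 38.0 CPM there in control, higher in rNLS8 on both sides. The next by p were Rab12 (0.24), Rab37 (0.63), Rab40c (0.23), Rab18 (-0.15), Rab7 (-0.15), Rab3a (-0.16) and Rab23 (1.47). No effect on a Rab gene was thus shown to differ between cortex and the rest.

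Several Rab genes had a regional pattern in both genotypes, given here as a description since regions were made from the same spots, and each region was scaled on its own. Rab31 averaged 209.8 ± 5.42 CPM in rNLS8 and 268.5 ± 7.57 CPM in control fibre tracts (SD, n = 2), and 83.2 ± 0.362 CPM in rNLS8 and 92.4 ± 6.02 CPM in control cortex. Rab33a averaged 74.3 ± 1.10 CPM in rNLS8 and 97.0 ± 20.4 CPM in control cortex, and 44.8 ± 7.39 CPM in rNLS8 and 53.0 ± 12.9 CPM in control striatum. Rab31 was thus highest in the myelinated tracts and Rab33a higher in cortex than in striatum, in all 4 sections. Rab40b averaged 103.4 ± 24.4 CPM in rNLS8 and 163.2 ± 38.0 CPM in control striatum, above its cortical levels in all 4 sections.

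Rab27a averaged 30.6 ± 2.1 CPM in rNLS8 and 40.1 ± 7.09 CPM in control basal forebrain, a region with 44 spots in rNLS8 replicate 2 that was not tested, and 13.7 ± 0.630 CPM in rNLS8 and 11.8 ± 1.87 CPM in control cortex. Rab36, a Golgi and late-endosome Rab, had 141.4 and 66.9 CPM in rNLS8 ependyma and 132.7 and 143.5 CPM in control ependyma, a region of at most 63 spots a section, against 52.4 and 46.7 CPM in rNLS8 cortex and 60.1 and 55.9 CPM in control cortex. At Leiden resolution 0.5, looked at after the data were seen, the cortex came as a cluster led by Fezf2 and Neurod6 among others and one led by Bhlhe22 and Prdm8. Rab26 averaged 42.0 ± 4.55 CPM in rNLS8 and 60.7 ± 3.68 CPM in control in the cluster with Fezf2, a gene of deep cortical layers, and 16.3 ± 2.63 CPM in rNLS8 and 20.8 ± 4.45 CPM in control in the other. The order of the clusters for Rab26 held in all 4 sections.

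Moran's I, the authors' score of how far neighbouring spots resemble each other for a gene, could be tested for 32 Rab genes, those found in 10% or more of the spots of every section. Limma called 0 of 32, against 0.0316% of 6321 genes, and 9 had an unadjusted p under 0.05 (28.1%, against 14.4%). I was lower without overlap in rNLS8 for 22 of 32 (68.8%), against 46.9% of all genes. The median difference was -0.0221 for the 32 members and -0.0119 for all genes. Of the 32 members, 8 had such a p and were lower in rNLS8 (25.0%, against 12.4% of all genes), and 1 was higher (3.12%, against 1.95%). Lower values of I prevailed over all genes too, and the smallest adjusted p among members was 0.333 by limma.

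Rab6b had the smallest p, with I of 0.0953 and 0.0829 in rNLS8 and 0.163 and 0.172 in control (difference -0.0783, SE 0.0228). Rab35, a Rab of endocytic recycling and neurite growth, had 0.000956 and -0.00123 in rNLS8 and 0.0293 and 0.0220 in control. Rab21 had 0.0158 and 0.00160 in rNLS8 and 0.0650 and 0.0388 in control, and Rab33a had 0.0326 and 0.0357 in rNLS8 and 0.0677 and 0.0596 in control. None of these 4 overlapped between genotypes in I. Their levels in whole sections overlapped for Rab21, at 113.7 and 112.9 CPM in rNLS8 and 111.7 and 114.0 CPM in control, but not for Rab35, at 41.9 and 41.3 CPM in rNLS8 and 38.7 and 40.1 CPM in control. Rab26 went the other way, with 0.0509 and 0.0608 in rNLS8 and 0.0285 and 0.0371 in control (difference 0.0231, SE 0.00804), while its level was lower in rNLS8. Rab28, Rab2a, Rab3c, Rab14 and Rab15 were the next lower ones, with differences of -0.0284, -0.0348, -0.0288, -0.0428 and -0.0491. The median spot held 9776 and 6316 UMI in rNLS8 and 5364 and 6098 UMI in control, and the part of depth in the score was not tested.

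**Figure D5:**
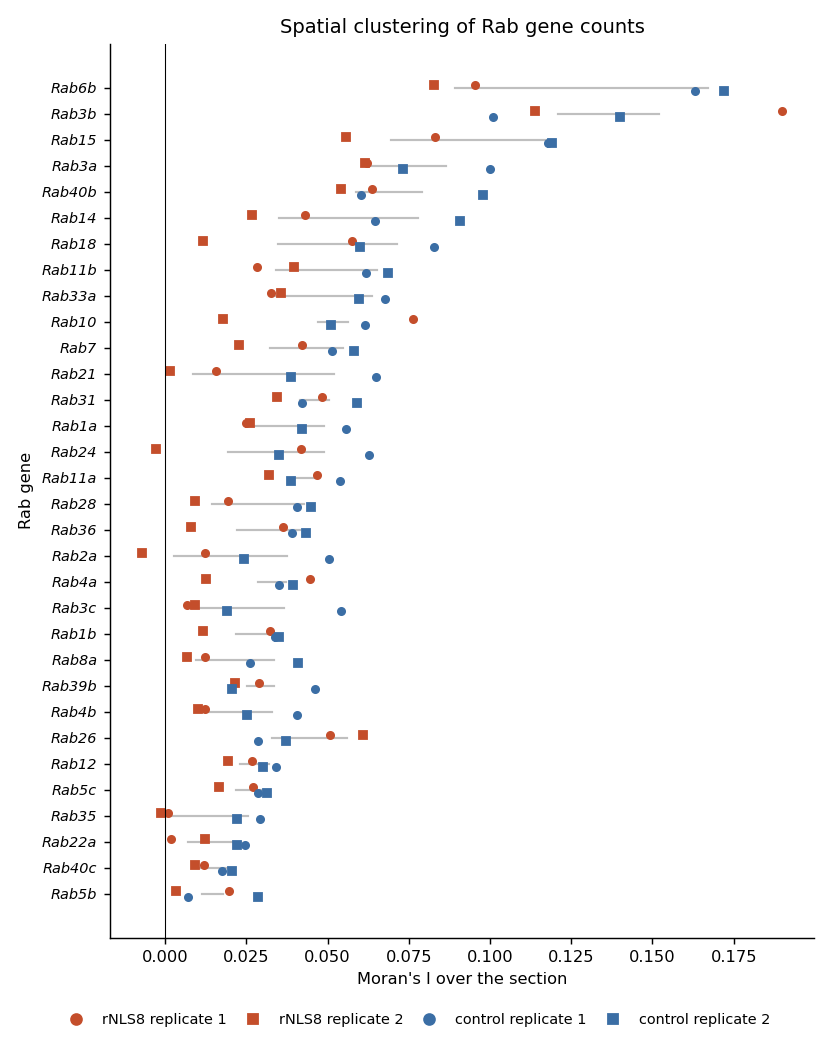
Moran's I over the section (horizontal axis, no unit) of the 32 Rab genes tested, 1 point a section, rNLS8 points drawn above control points, with a grey line between the genotype means. For 22 genes both rNLS8 sections lie below both control sections, and for Rab26 both lie above.

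Cst7, which encodes cystatin F and marks activated microglia, had a UMI in 124 of 790 cortical spots of rNLS8 replicate 1 and in 255 of 888 of replicate 2, so Rab levels were set side by side in spots with and without it, with no test. Most members with counts had a ratio near 1. Rab6b had a ratio, spots with Cst7 over spots without, of 1.03 and 0.971 in rNLS8 replicates 1 and 2, and Rab7 one of 0.996 and 0.899. Rab40b had 0.724 and 0.773 on 52 and 111 UMI, below 1 in both sections. Rab26 had 0.970 and 0.565, and Rab31 had 1.06 and 1.19. The median spot with Cst7 held 10420.5 and 8984 UMI and the median spot without it 11256 and 8625 UMI.

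The regulators and effectors of Rab proteins were taken as a list of 123 genes measured, of which 116 were tested in whole sections and 111 in the cortex. edgeR called 0 of them in whole sections, cortex and striatum. In the cortex 13 were higher and 15 lower at an unadjusted p under 0.05, against 9.84% and 11.0% of all genes. The GEFs had the smallest p. Dennd1b, a GEF of Rab35, had 67.8 and 70.8 CPM in rNLS8 cortex and 20.4 and 33.6 CPM in control cortex (1.36, SE 0.240, adjusted p = 0.0525 by edgeR). Rab3gap2, part of a complex that activates Rab18, had 185.6 and 183.8 CPM in rNLS8 cortex and 108.7 and 118.9 CPM in control cortex (0.70, SE 0.139, adjusted p = 0.0609 by edgeR). Rin1, a neuronal GEF of Rab5, had 55.6 and 72.3 CPM in rNLS8 cortex and 148.6 and 111.1 CPM in control cortex (-1.02, SE 0.205, adjusted p = 0.0624 by edgeR). All 3 kept the genotypes apart in the cortex, with Dennd1b and Rab3gap2 higher and Rin1 lower.

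Of 13 effectors of Rab3 and Rab27, 9 were tested in the cortex, with a median log2 fold change of -0.34. Of the 9, 4 were lower and 0 higher at an unadjusted p under 0.05, against 11.0% lower and 9.84% higher over all genes. Rims1, the active-zone scaffold that binds Rab3, had 238.0 and 209.7 CPM in rNLS8 cortex and 348.8 and 396.0 CPM in control cortex (-0.73, SE 0.151, adjusted p = 0.0644 by edgeR). Rph3a, or rabphilin, had 868.1 and 983.8 CPM in rNLS8 cortex and 1702 and 1270 CPM in control cortex (-0.68, SE 0.184, adjusted p = 0.11 by edgeR). Both were lower in each rNLS8 section, as were the sums of neuronal markers given above, whose part was not tested. Sytl1 also lay lower, at low levels of 0.324 and 0.364 CPM in rNLS8 cortex and 2.00 and 2.89 CPM in control cortex (-2.79, SE 0.574). In whole sections 2 of the 12 effectors tested were above 0 and 10 below. Sytl2 was above, with 96.6 and 91.65 CPM in whole rNLS8 sections and 67.5 and 71.3 CPM in whole control sections (0.44). In the striatum its log2 fold change was 0.61.

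The 9 Golgi effectors had a median log2 fold change of 0.41 in the cortex, with 3 higher and 0 lower at an unadjusted p under 0.05, against 9.84% higher and 11.0% lower over all genes. Bicd2, a dynein adaptor that binds Rab6, had 76.9 and 86.1 CPM in rNLS8 cortex and 52.9 and 58.0 CPM in control cortex (0.55, SE 0.151, adjusted p = 0.112 by edgeR), and its paralog Bicd1 had 73.9 and 80.0 CPM in rNLS8 cortex and 52.2 and 57.3 CPM in control cortex. Mical1, an oxidase of actin that binds Rab proteins, had 28.8 and 27.2 CPM in rNLS8 cortex and 17.9 and 21.2 CPM in control cortex. All 3 were higher in each rNLS8 section.

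Among 13 effectors of early and recycling endosomes, 3 were higher and 1 lower at an unadjusted p under 0.05 in the cortex, against 9.84% higher and 11.0% lower over all genes. Rab11fip4 had 391.1 and 406.9 CPM in rNLS8 cortex and 270.2 and 300.4 CPM in control cortex (0.48, SE 0.140, adjusted p = 0.126 by edgeR). Ankfy1 had 61.7 and 77.8 CPM in rNLS8 cortex and 48.4 and 48.3 CPM in control cortex, and Rabep1, or rabaptin, 82.3 and 90.0 CPM in rNLS8 cortex and 42.2 and 65.5 CPM in control cortex. These 3 were higher without overlap, as Rab11b was. Of the 11 effectors of late endosomes and LRRK2 kinases, Rilpl1 had 50.9 and 48.1 CPM in rNLS8 cortex and 67.4 and 95.9 CPM in control cortex, Vps41 had 99.99 and 103.9 CPM in rNLS8 and 117.1 and 154.8 CPM in control, and Rilpl2 had 14.3 and 15.6 CPM in rNLS8 and 8.63 and 11.8 CPM in control.

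Chm, the escort protein for prenylation of Rab proteins, had 57.1 and 52.3 CPM in rNLS8 cortex and 30.4 and 41.1 CPM in control cortex (0.61, SE 0.190, adjusted p = 0.142 by edgeR). Chm was higher in both rNLS8 sections. Rabggta, a subunit of the prenyl transferase, overlapped, with 159.3 and 199.5 CPM in rNLS8 cortex and 274.7 and 173.7 CPM in control cortex. Of 29 GAPs tested in the cortex, Tbc1d16 had 43.5 and 43.4 CPM in rNLS8 and 27.9 and 27.4 CPM in control (0.65, SE 0.153, adjusted p = 0.0847 by edgeR), Sgsm2 had 124.7 and 143.4 CPM in rNLS8 and 253.1 and 170.0 CPM in control, and Tbc1d10a had 41.6 and 50.6 CPM in rNLS8 and 75.2 and 56.8 CPM in control.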

How the data were processed

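Visium spatial expression was measured on 4 FFPE mouse brain sections, 2 rNLS8 and 2 control. The deposited matrices give raw counts, 1 UMI count for each gene in each spot, made with Space Ranger 2.1.0 per the file headers on mm10 per the submitters' processing notes. The sources used here do not give the probe set. The deposited spatial tables hold, per the file headers, Moran's I (a score), its p-value, and a signal, the average count after the authors' scaling to the median, of which the score was used, with the same tables' counts per gene and numbers of spots with a count.

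Spots with at least 500 UMI were kept and clustered together (scanpy 1.11.5, leidenalg 0.10.2) after scaling to 10000 counts a spot, on 2000 variable genes without Rab genes, their regulators, response genes, microglial or leukocyte genes, with 30 components, 15 neighbours and Leiden resolution 1. Clusters of at least 100 spots were named where a marker list led by a mean log2 of 0.8 with at least 3 markers detected. Cluster 3 was kept as cortex on its list lead of 0.922. Regions with under 50 spots in a section were not tested.

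UMI were summed per section and region. The quasi-likelihood fits were made in edgeR 4.0.16 under R 4.3.3, with trimmed-mean scaling and its default filter, with Benjamini-Hochberg adjustment over all genes tested and a threshold of 0.05. The SE is the log2 fold change over the square root of F. DESeq2 1.42.0 was an alternative. The cortex and all other spots were compared by an interaction with section as a block. Moran's I was compared with limma 3.58.1 with a trend by mean count. Fits were also run on simulated counts with the same spread in every section. The sections here differ in spread, so those runs do not show how the fits behave on them.

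Same-numbered sections did not deviate together (correlation -0.063 in whole sections, -0.0698 in the cortex), so replicate numbers were not taken as pairs. Members, lists and markers were chosen with earlier results of these data known. Values per section were given for the 10 members with the smallest p in whole sections, cortex and striatum and for Rab1a, Rab3a, Rab5a, Rab7, Rab11a and Rab27b, and for the members with the smallest p in the other comparisons. Regulators were named by the 3 smallest p of their list. 1 of these regulators is not reported here.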

Additional observations from a re-analysis of the deposited data

Results flagged for a closer look

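Rab27a is given here because its rNLS8 sections lay on opposite sides of the control sections in the cortex and in the sum over all other spots. In the cortex it had 13.3 and 14.2 CPM in rNLS8 and 10.5 and 13.1 CPM in control, both rNLS8 sections higher. In all other spots it had 21.4 and 20.9 CPM in rNLS8 and 22.2 and 21.6 CPM in control, both lower. The difference of the effects was 0.23 (SE 0.192), with an adjusted p of 0.742 by edgeR, so it did not pass. The other spots did not share 1 direction. In the striatum, which belongs to them, Rab27a had 17.3 and 32.2 CPM in rNLS8 and 16.6 and 16.1 CPM in control, both rNLS8 sections higher (0.54, SE 0.312, adjusted p = 0.466 by edgeR), beside 0.22 in the cortex. In the basal forebrain, which was not tested, it had 32.0 and 29.1 CPM in rNLS8 and 35.1 and 45.1 CPM in control, both lower, and in the fibre tracts and meninges the genotypes overlapped.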

How the results depend on the processing

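Rab genes called at an adjusted p under 0.05 numbered 0 in every comparison by the edgeR test as reported. DESeq2 called 1 in whole sections (Rab40b), 2 in the cortex (Rab24 and Rab40b) and 1 in the striatum (Rab3b). Without the filter on low counts 1 was called in the cortex (Rab40b). With the replicate block, 4 of 47 were called in the cortex (Rab3c, Rab9b, Rab33b and Rab40b), against 1029 of 12237 genes. The block also gave 1 in the fibre tracts (Rab3b), where the count over all genes is not given here. It changed no other count of Rab calls. Leaving out 1 section at a time gave 0 to 10 calls in whole sections, 0 to 21 in the cortex, 0 to 6 in the striatum, 0 to 2 in the fibre tracts and 0 to 4 in the meninges, with the high end in each without control replicate 2. In those fits without control replicate 2 all-gene shares called were 13.5%, 30.6%, 9.34%, 2.87% and 11.1%, in the same order, against 18.9%, 43.8%, 12.8%, 5.0% and 9.76% of the Rab genes tested, and the spread came from the rNLS8 pair alone. Calls over all genes also varied, from 164 in the cortex to 3 with library totals, 614 without the filter, 674 by DESeq2, 107 at Leiden resolution 1.5 and 1029 with the replicate block, and from 0 in whole sections to 239 without the filter, 519 by DESeq2 and 78 with the replicate block. Library totals, UMI minimums, an equal mix of regions, leaving out rim clusters (added after the data were seen), marker scores and other resolutions left the counts at 0. Keeping all spots under tissue was not run for the cortex.

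Directions turned in named members, none of them called as reported. Rab27b was at 0.013 with library totals and 0.15 with the replicate block in whole sections, and 0.073 with the replicate block in the cortex. Rab26 was at 0.094 in the cortex at Leiden resolution 1.5. With 1 section left out, Rab27b ran from -0.72 to 1.08 in whole sections, -0.99 to 1.45 in the cortex, -1.11 to 0.80 in the striatum and -0.45 to 0.52 for the difference between cortex and the rest. Rab11a ran from -0.50 to 0.079 in whole sections, -0.37 to 0.17 in the striatum, -0.54 to 0.056 in fibre tracts, -0.46 to 0.14 in meninges and -0.0144 to 0.000615 for Moran's I. Rab3a ran from -0.23 to 0.078 in the striatum, -0.17 to 0.042 in fibre tracts and -0.41 to 0.0037 in meninges. Rab1a ran from -0.28 to 0.038 in meninges, and the difference for Rab23 from -3.13 to 1.78. Rab27b and Rab23 rest on 460 and 71 UMI over all sections. The cause of each turn was not tested.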
